A study of Mus musculus with 24 samples.

Results

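The proteasome genes described here are the 48 genes of the deposited table whose symbol runs from Psma to Psmg followed by a number, out of 43346 genes. They were split by role into 5 immunoproteasome members (Psmb8, Psmb9, Psmb10, Psme1 and Psme2) and 43 constitutive members. A level of at least 10 counts in at least 6 of the 24 libraries was asked for, and all 48 genes had it. All 48 were also among the 21891 genes tested.

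The libraries are total RNA of mouse cortex, 1 per mouse, in 4 groups of 6. The groups are mice labelled Abca7 with LPS (54 to 56 days old), mice labelled Abca7 without a stimulus (55 to 58 days), control mice with LPS (54 to 56 days) and control mice without a stimulus (55 to 57 days). LPS (lipopolysaccharide) is the bacterial cell-wall molecule sensed by the receptor Tlr4, and the design text says that it was injected and that the mice labelled Abca7 were heterozygous for this lipid transporter gene. Its dose, route and timing, the strain and the nature of the Abca7 allele were not stated in the labels or the design text.

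The proteasome is the protease of the cytosol and nucleus that degrades proteins tagged with ubiquitin. Its barrel-shaped core particle is built of alpha and beta rings and carries the active sites inside on Psmb5, Psmb6 and Psmb7, and caps such as the ATP-driven regulatory particle open it and feed it. Interferon makes cells build new core particles in which Psmb8, Psmb9 and Psmb10 take the places of Psmb5, Psmb6 and Psmb7, and adds the PA28 cap of Psme1 and Psme2. This immunoproteasome yields peptides that fit MHC class I molecules, and in the resting brain it is known to be scarce.

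Short stretches of promoter are shown because they set an interferon-type letter pattern in 2 immunoproteasome genes beside a stress-type pattern in 2 of the constitutive genes they are compared with. The patterns do not separate the classes, since interferon-type letters also stood in constitutive members, listed below. Members are counted by gene and the shares of all windows by window, so these compare only roughly. They come from the RefSeq windows of 300 bases around annotated starts on GRCm38.p6 (for Psmb8 and Psme1 these starts lie inside the span given in the deposited table), are written 5′ to 3′ on the strand of the gene, and carry the matching letters in capitals. The first is at chr17:34198088-34198117 (plus strand), the second at chr14:55578493-55578522 (plus strand), the third at chr14:54618023-54618052 (minus strand) and the fourth at chr11:70525338-70525367 (plus strand).
Psmb8: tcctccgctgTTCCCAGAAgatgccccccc
Psme1: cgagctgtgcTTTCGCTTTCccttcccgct
Psmb5: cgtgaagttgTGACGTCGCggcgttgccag
Psmb6: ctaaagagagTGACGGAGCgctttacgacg
The capitals of Psmb8 match TTCNNNGAA, the pattern of the interferon-gamma-activated sequence, at -97 to -89 from the start. Those of Psme1 match GAAANNGAAA, the core of the interferon-stimulated response element, on the opposite strand at 10 to 19 after the start. The capitals of Psmb5 (-47 to -39) and Psmb6 (-9 to -1) match TGACNNNGC, the core of the antioxidant response element, to which the proteasome regulators Nfe2l1 and Nfe2l2 bind. Windows were present for 40 of the 48 genes and both strands were searched. The gamma-activated pattern stood in the windows of 3 members (Psmb8, Psmd2 and Psmg1) and in 8.30% of all 32851 windows. The interferon-stimulated pattern stood in those of 5 members (Psmb3, Psmd4, Psmd9, Psme1 and Psmg4) and in 3.44% of all windows. The antioxidant pattern stood in 6 members (Psmb5, Psmb6, Psmc6, Psmd12, Psmd9 and Psme4) and in 12.4% of all windows. The NF-kB consensus stood in the window of Psmd12 and in 4.51% of all windows. The windows of Psmb9, Psmb10 and Psme2 held none of these letters. A match describes letters in a window and does not show a bound site.

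Libraries held 48149131 to 75741388 counts, and the 48 genes together took 0.202% to 0.247% of them. The difference in total counts between LPS and unstimulated groups was within the spread between mice (two-sided exact permutation test, p = 0.496 in mice labelled Abca7 and 0.617 in control mice, n = 6 per group). The first principal component, with 44.0% of the variance, separated LPS from unstimulated libraries, and replicate 4 of the LPS mice labelled Abca7 stood apart from its group with a score of 9.87, where the other LPS libraries lay between 25.4 and 47.1. The LPS effects on the immunoproteasome genes in mice labelled Abca7 are therefore also given without it. The Abca7 gene itself was not lower in the mice that carry its name: it averaged 29.4 ± 2.30 CPM (read counts scaled to the effective size of the library) in LPS mice labelled Abca7 and 24.5 ± 2.66 CPM in LPS control mice, and 32.1 ± 2.07 CPM and 28.6 ± 2.22 CPM in unstimulated mice labelled Abca7 and unstimulated controls (SD, n = 6 each; adjusted p = 0.267 and 0.606, edgeR quasi-likelihood test). All 4 markers of cortical excitatory neurons were present, with a summed level of 947 to 1352 CPM in every library. Under LPS all 4 had negative log2 fold changes, with medians of -0.08 in mice labelled Abca7 and -0.18 in control mice, and Neurod6 was called lower in both genotypes. The 3 inhibitory neuron markers were all positive, with medians of 0.07 in mice labelled Abca7 and 0.14 in control mice. So were the 4 oligodendrocyte markers, with medians of 0.16 and 0.17. Of these 2 lists 0 genes were called.

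All 5 immunoproteasome members were higher with LPS in both genotypes, and the changes of the constitutive subunits were slight. In control mice the calls of Psmb10 and Psme1 did not hold once the level of Ttr, a choroid plexus gene, was in the model, and 4 of the 5 choroid plexus markers were called higher with LPS in these mice. In mice labelled Abca7, 5 of 5 immunoproteasome members were called higher, in an experiment in which 6.65% of all genes were called higher and 5.18% lower. In control mice it was again 5 of 5, where 9.39% of all genes were called higher and 7.92% lower. In both comparisons the 6 LPS libraries lay wholly above the 6 unstimulated ones for each of the 5 genes, and 3.49% of all genes did so in mice labelled Abca7 and 5.38% in control mice. The opposite separation, with every LPS library lower, held for 2.24% of genes in mice labelled Abca7 and 3.69% in control mice, and for 0 of the 48 proteasome genes. "Called" means an adjusted p under 0.05 in edgeR's quasi-likelihood test, adjusted by Benjamini and Hochberg over all genes tested. The sizes fell into a pair of tiers, with Psmb8 and Psmb9 at least 3.46-fold higher and Psme2, Psme1 and Psmb10 between 1.23-fold and 1.51-fold higher. In RNA of whole tissue, more cells of a type and more RNA per cell cannot be told apart.

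**Figure D1:**
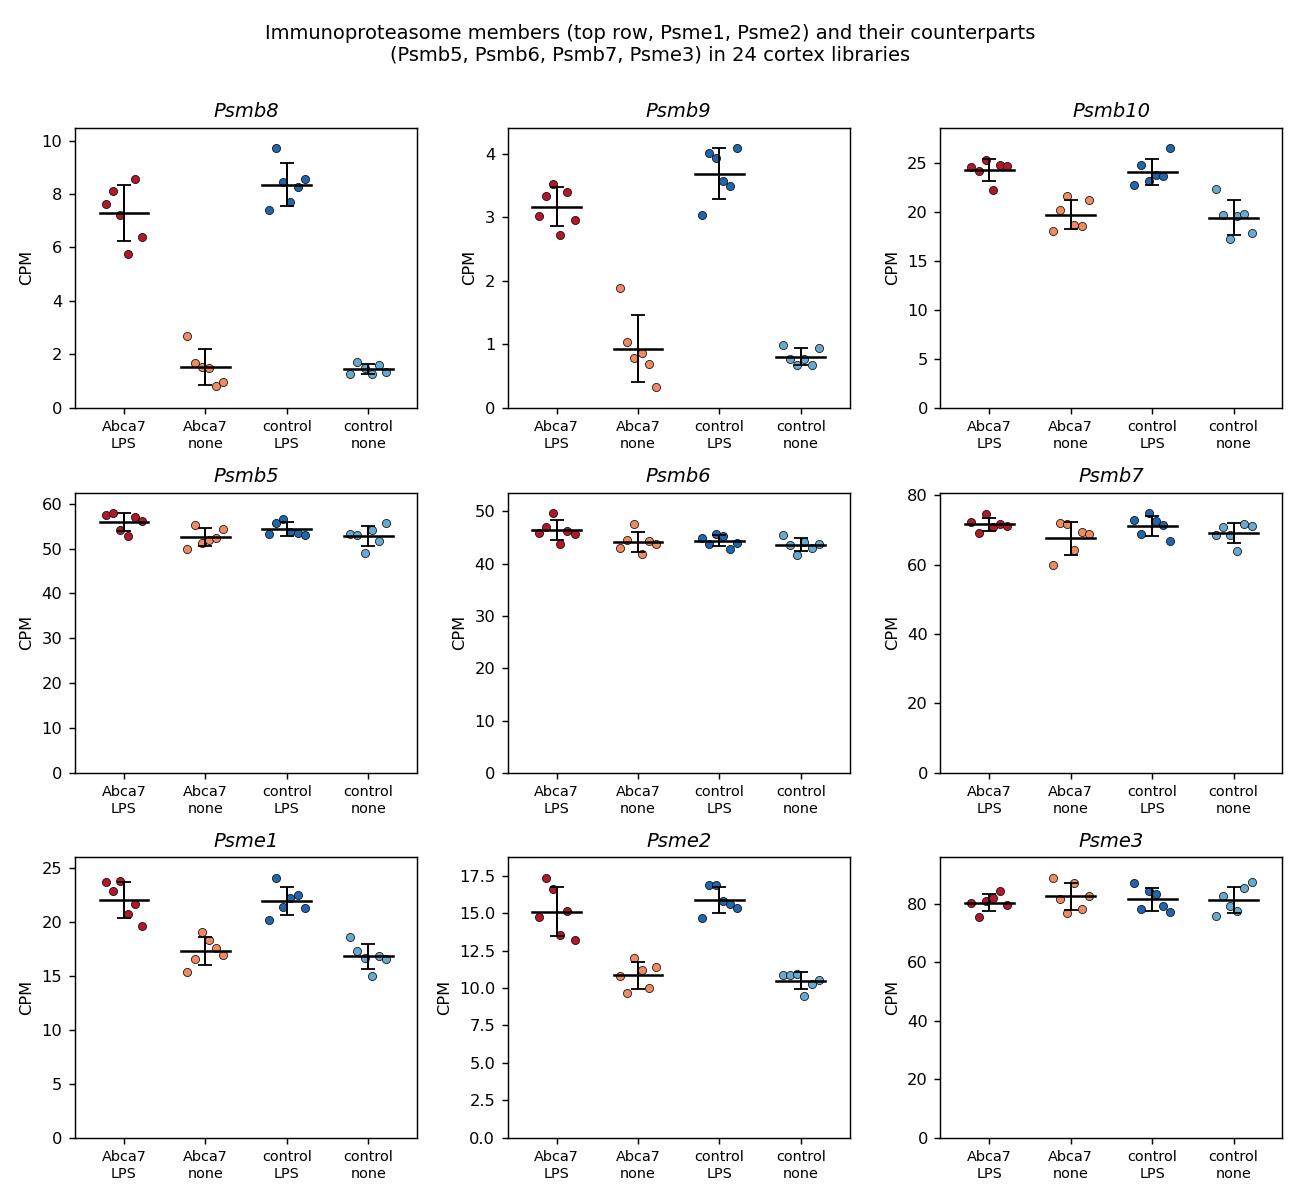
Level in CPM (vertical axes, from 0) of the 5 immunoproteasome members and of Psmb5, Psmb6, Psmb7 and Psme3 in each of the 24 libraries, by group, with 1 point per mouse and bars for the mean and SD of 6 mice. The LPS libraries lie above the unstimulated ones for Psmb8, Psmb9, Psmb10, Psme1 and Psme2, and overlap with them for the 4 counterparts.

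Psmb8 (ENSMUSG00000024338), the immunoproteasome subunit that takes the place of Psmb5 (ENSMUSG00000022193), had the largest change. Its lowest, median and highest levels were 5.77, 7.42 and 8.58 CPM in LPS mice labelled Abca7, against 0.827, 1.51 and 2.70 CPM in unstimulated mice labelled Abca7. In control mice they were 7.42, 8.36 and 9.71 CPM with LPS, against 1.25, 1.42 and 1.71 CPM without. Every LPS mouse thus had over 5 CPM and every unstimulated mouse under 3. The log2 fold change was 2.27 ± 0.17 in mice labelled Abca7 (a 4.83-fold higher level, adjusted p = 5.87e-11) and 2.53 ± 0.17 in control mice (5.78-fold, adjusted p = 4.21e-12), both from edgeR and given with the standard error. The counts behind these levels were 294 to 594 and 46 to 117 in LPS and unstimulated mice labelled Abca7, and 401 to 589 and 74 to 108 in LPS and unstimulated control mice.

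Psmb9 (ENSMUSG00000096727), which takes the place of Psmb6 (ENSMUSG00000018286), was the scarcest of the 5 genes per kilobase of gene length in every group. Its lowest, median and highest levels were 2.73, 3.18 and 3.53 CPM in LPS mice labelled Abca7, against 0.331, 0.824 and 1.89 CPM in unstimulated ones. Among control mice they were 3.04, 3.75 and 4.09 CPM with LPS, against 0.675, 0.768 and 0.987 CPM without. The groups did not overlap, and the log2 fold changes were 1.79 ± 0.21 in mice labelled Abca7 (3.46-fold, adjusted p = 2.67e-07, edgeR) and 2.20 ± 0.21 in control mice (4.59-fold, adjusted p = 4.77e-09, edgeR). The unstimulated mice labelled Abca7 were the most uneven group for both genes: the coefficient of variation was 43.1% for Psmb8 and 56.4% for Psmb9, against 12.6% and 16.4% in unstimulated controls. Replicate 1 of that group, which was also its oldest mouse at 58 days, had the highest level of both. Without it, the log2 fold changes in mice labelled Abca7 were 2.48 ± 0.14 for Psmb8 and 2.09 ± 0.17 for Psmb9. The lowest values with 1 library left out were 2.15 ± 0.16 for Psmb8 (without unstimulated replicate 5 labelled Abca7) and 1.61 ± 0.18 for Psmb9 (without replicate 6 of that group).

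Psmb10 (ENSMUSG00000031897), which takes the place of Psmb7 (ENSMUSG00000026750), was by far the most abundant of the 3 catalytic members without a stimulus, with 15.5 ± 1.18 and 15.3 ± 1.41 CPM per kilobase in unstimulated mice labelled Abca7 and unstimulated controls. Its lowest, median and highest levels were 22.2, 24.7 and 25.3 CPM in LPS mice labelled Abca7, against 18.1, 19.4 and 21.6 CPM in unstimulated ones. In control mice they were 22.8, 23.8 and 26.5 CPM with LPS, against 17.3, 19.7 and 22.4 CPM without. The groups came close but did not overlap. The log2 fold change was 0.30 ± 0.06 in mice labelled Abca7 (adjusted p = 3.14e-04, edgeR) and 0.31 ± 0.06 in control mice (adjusted p = 1.58e-04, edgeR), or 23.2% and 24.02% higher. With Ttr in the model, the change in control mice was 0.16 ± 0.07 (adjusted p = 0.212, edgeR), past the threshold no longer.

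Psme1 (ENSMUSG00000022216) and Psme2 (ENSMUSG00000079197) are the alpha and beta subunits of the PA28 cap, and both were called higher in both genotypes. Psme1 had 19.7, 22.2 and 23.8 CPM at the lowest, median and highest in LPS mice labelled Abca7, against 15.4, 17.2 and 19.1 CPM in unstimulated ones, and 20.2, 21.8 and 24.04 CPM in LPS control mice, against 14.9, 16.7 and 18.6 CPM in unstimulated ones. Psme2 had 13.2, 14.9 and 17.3 CPM in LPS mice labelled Abca7, against 9.64, 11.01 and 12.02 CPM in unstimulated ones, and 14.7, 15.7 and 16.9 CPM in LPS control mice, against 9.48, 10.7 and 10.9 CPM in unstimulated ones. For neither gene did LPS and unstimulated libraries overlap. Psme1 rose by 27.3% in mice labelled Abca7 (log2 fold change 0.35 ± 0.06, adjusted p = 6.86e-05, edgeR) and by 30.4% in control mice (0.38 ± 0.06, adjusted p = 1.23e-05). With Ttr in the model, Psme1 had 0.20 ± 0.07 in control mice and was not called (adjusted p = 0.0905, edgeR). Psme2 rose by 39.2% in mice labelled Abca7 (0.48 ± 0.06, adjusted p = 3.30e-06, edgeR) and by 51.3% in control mice (0.60 ± 0.06, adjusted p = 4.77e-08). Of the 50-base stretches of Psme2, 28.3% also occur in Psme2b, a near copy of it, so reads may have been divided between them or dropped. Psme2b itself had 2.12 ± 0.16 and 0.890 ± 0.063 CPM in LPS and unstimulated mice labelled Abca7, and 2.45 ± 0.27 and 0.920 ± 0.13 CPM in LPS and unstimulated control mice (SD, n = 6 each), with log2 fold changes of 1.25 ± 0.11 and 1.41 ± 0.10.

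Leaving out replicate 4 of the LPS mice labelled Abca7 changed none of these calls. Without it, the log2 fold changes in mice labelled Abca7 were 2.33 for Psmb8, 1.83 for Psmb9, 0.32 for Psmb10, 0.36 for Psme1 and 0.50 for Psme2. Because the groups were not matched for age, values within an age were also taken. At 55 days, mean log2 CPM of Psmb8 differed by 2.43 between 2 LPS and 3 unstimulated mice labelled Abca7 and by 2.41 between 2 LPS and 2 unstimulated controls, and that of Psmb9 by 2.19 and 2.09. Psmb10, Psme1 and Psme2 differed there by 0.31, 0.25 and 0.40 in mice labelled Abca7 and by 0.38, 0.31 and 0.53 in control mice. Among control mice of 56 days (3 with LPS and 3 without), the differences were 2.16 for Psmb9, 0.29 for Psmb10, 0.39 for Psme1 and 0.56 for Psme2.

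The constitutive members showed at most slight shifts. In mice labelled Abca7, 0 of 43 were called and 5 had an unadjusted p under 0.05. In control mice 1 of 43 was called higher and 0 lower, and 4 had an unadjusted p under 0.05. Of all 21891 genes tested, 5141 had such a p in mice labelled Abca7 and 6364 in control mice (edgeR). The shares of all genes called were 6.65% higher and 5.18% lower in mice labelled Abca7, and 9.39% and 7.92% in control mice. The median log2 fold change of the 43 was 0.02 in mice labelled Abca7 and 0.03 in control mice, beside a median over all genes tested of 0.0052 and 0.0051. Leaving aside Psma8 and Psmb11, which were read at the floor, the constitutive changes ran between -0.09 and 0.13 in mice labelled Abca7 and between -0.06 and 0.14 in control mice, and the 95% intervals of all 41 lay within 0.5 log2 units of 0 in both. Summed over the 43 genes, the level was 2235 ± 44.8 and 2203 ± 32.3 CPM in LPS and unstimulated mice labelled Abca7, and 2248 ± 57.8 and 2206 ± 61.6 CPM in LPS and unstimulated control mice (SD, n = 6 each). The summed level of the 5 immunoproteasome genes was 71.9 ± 4.80 and 50.4 ± 2.59 CPM in LPS and unstimulated mice labelled Abca7, and 74.0 ± 3.70 and 49.0 ± 2.98 CPM in LPS and unstimulated control mice.

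**Figure D2:**
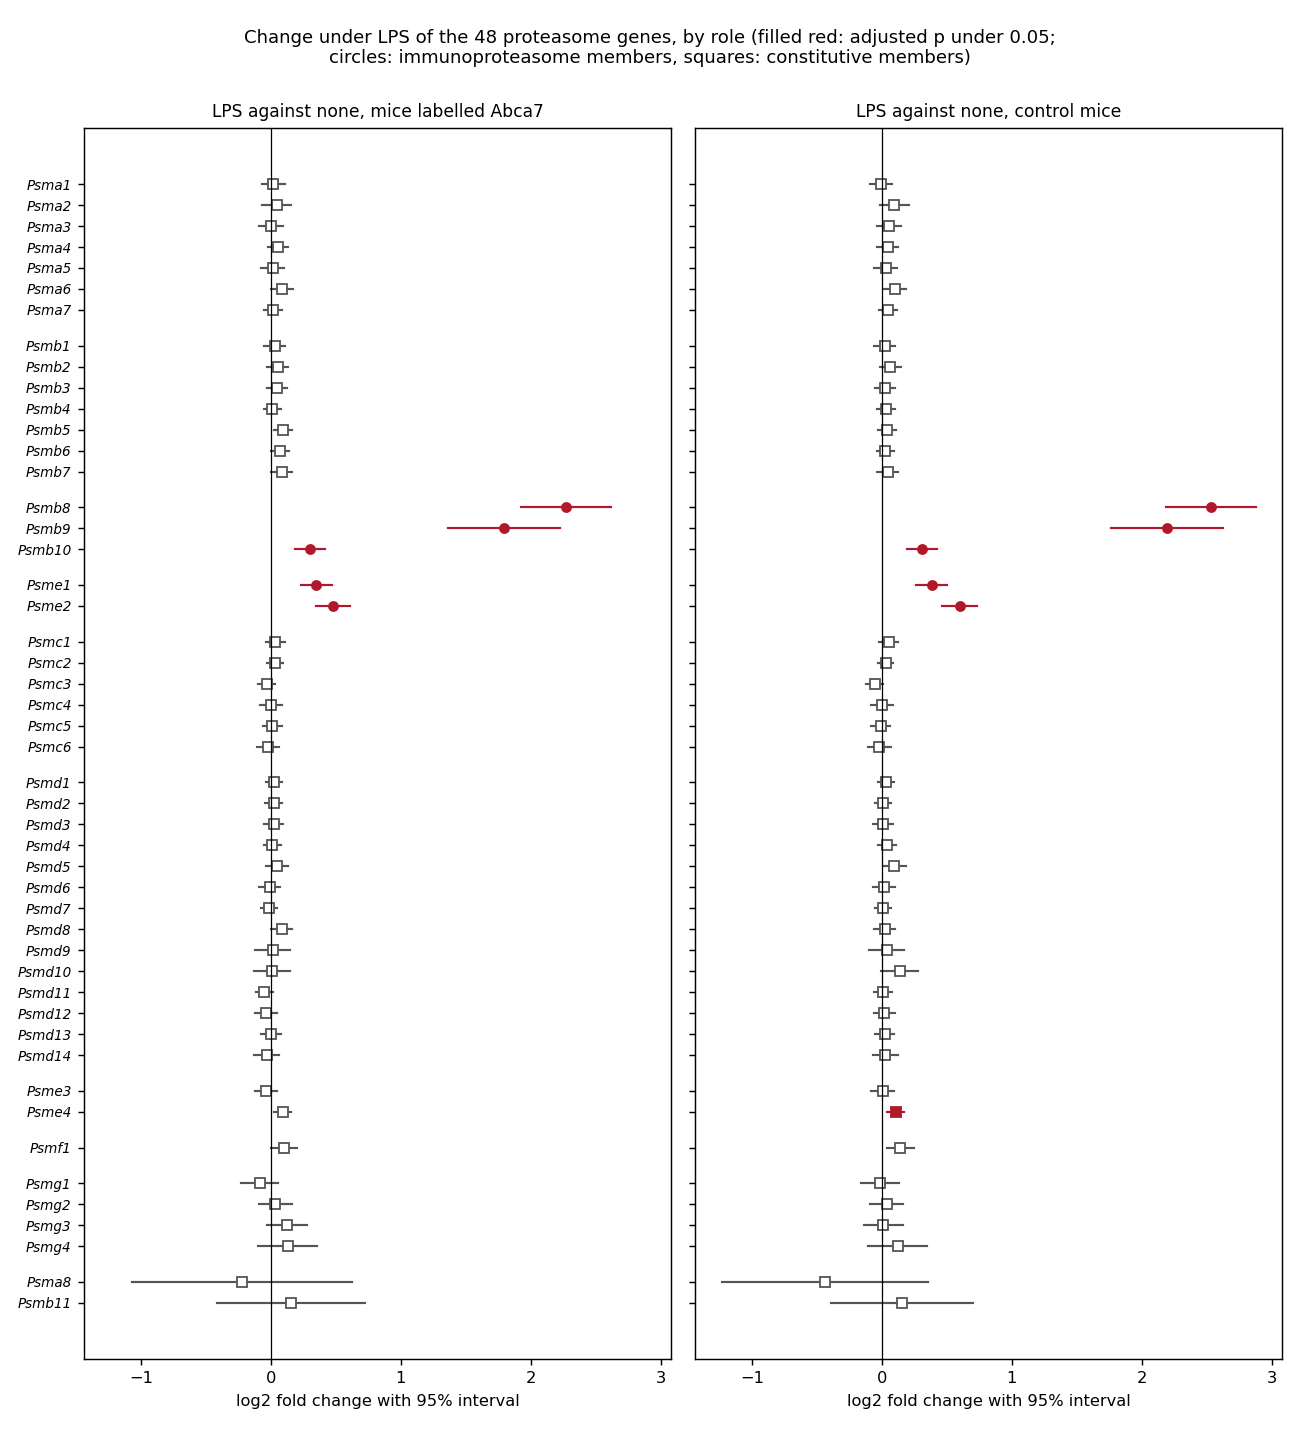
Log2 fold change under LPS with its 95% interval (horizontal axes) for all 48 genes, ordered by role, in mice labelled Abca7 (left) and control mice (right); circles are immunoproteasome members, squares are constitutive members, and filled red symbols were called. Psmb8 and Psmb9 lie at 2.27 and 1.79 in mice labelled Abca7 and at 2.53 and 2.20 in control mice, while the constitutive genes cluster at 0 apart from the wide intervals of Psma8 and Psmb11.

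By role, the 7 alpha-ring genes Psma1 to Psma7, which gate the core particle, had changes of at most 0.08 in mice labelled Abca7 and of -0.01 to 0.10 in control mice, with 0 called. Psma6, highest in both genotypes, had 0.08 ± 0.04 in mice labelled Abca7 and 0.10 ± 0.04 in control mice (adjusted p = 0.210 and 0.100, edgeR). The 7 beta-ring genes Psmb1 to Psmb7 ran from 0.01 to 0.09 and from 0.02 to 0.06 in mice labelled Abca7 and in control mice, again with 0 called. The 6 ATPase genes Psmc1 to Psmc6, which unfold substrates, ran from -0.03 to 0.03 and from -0.06 to 0.05. The 14 genes Psmd1 to Psmd14 encode other subunits of the regulatory particle and chaperones of its assembly (Psmd5, Psmd9 and Psmd10). They ran from -0.05 to 0.08 in mice labelled Abca7 and up to 0.14 in control mice. The highest of these in control mice was Psmd10 (gankyrin, a chaperone of the ATPase ring), with 0.14 ± 0.07 and an adjusted p of 0.189, and it was not called. Among the 4 core assembly chaperones Psmg1 to Psmg4, which guide the alpha ring together, changes lay between -0.09 and 0.13 in mice labelled Abca7. In control mice they lay between -0.02 and 0.12.

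The single constitutive gene called was Psme4, which encodes PA200, a large nuclear cap of the core particle. It had 75.6, 79.0 and 80.7 CPM at the lowest, median and highest in LPS control mice, against 67.5, 73.5 and 77.1 CPM in unstimulated controls, so the groups overlapped. The log2 fold change was 0.10 ± 0.03 (adjusted p = 0.0274, edgeR) in control mice, and it was 0.09 ± 0.03 (adjusted p = 0.0805) in mice labelled Abca7. Leaving out any 1 of 5 control libraries ended the call in control mice (LPS replicates 2 and 5, adjusted p = 0.0701 and 0.0636; unstimulated replicates 2, 5 and 6, 0.0874, 0.0683 and 0.0543). Psme3, the third PA28 relative, forms a nuclear cap. It had 75.4, 80.7 and 84.4 CPM in LPS mice labelled Abca7, against 77.0, 82.2 and 88.8 CPM in unstimulated ones, and 77.1, 81.3 and 87.0 CPM in LPS control mice, against 75.8, 81.1 and 87.4 CPM in unstimulated ones. The groups overlapped, and its log2 fold change was -0.04 ± 0.04 in mice labelled Abca7 and 0.0032 ± 0.041 in control mice (adjusted p = 0.664 and 0.972, edgeR). Psmf1, which encodes the proteasome inhibitor PI31, had 0.10 ± 0.05 in mice labelled Abca7 and 0.14 ± 0.05 in control mice, and was not called in either (adjusted p = 0.2203 and 0.0511).

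The catalytic subunits Psmb5, Psmb6 and Psmb7 are those displaced in the immunoproteasome, and none of them was called in either direction. Psmb5 had 52.9, 56.6 and 57.9 CPM at the lowest, median and highest in LPS mice labelled Abca7, against 49.9, 52.1 and 55.3 CPM in unstimulated ones, and 52.9, 53.6 and 56.7 CPM in LPS control mice, against 48.9, 53.2 and 55.6 CPM in unstimulated ones. Its log2 fold change was 0.09 ± 0.03 in mice labelled Abca7 (adjusted p = 0.0866, edgeR) and 0.04 ± 0.03 in control mice (0.474). Psmb6 had 43.7, 46.1 and 49.6 CPM in LPS mice labelled Abca7, against 41.9, 44.0 and 47.6 CPM in unstimulated ones, and 42.9, 44.4 and 45.6 CPM in LPS control mice, against 41.7, 43.7 and 45.5 CPM in unstimulated ones. Psmb7 had 69.1, 71.4 and 74.7 CPM in LPS mice labelled Abca7, against 59.9, 69.1 and 71.9 CPM in unstimulated ones, and 66.9, 72.0 and 74.8 CPM in LPS control mice, against 64.1, 69.8 and 71.6 CPM in unstimulated ones. For Psmb6 the log2 fold changes were 0.07 ± 0.03 and 0.03 ± 0.03 (adjusted p = 0.198 and 0.666), and for Psmb7 0.08 ± 0.04 and 0.04 ± 0.04 (adjusted p = 0.214 and 0.529), in mice labelled Abca7 and in control mice. LPS and unstimulated libraries overlapped for all 3. Of the 50-base stretches of Psmb5, 54.1% also occur in Gm3375, so its level may be understated.

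Set against these counterparts within each library, the immunoproteasome genes gained ground, by log2 differences that were not tested because the pairs were chosen with earlier results known. Psmb8 minus Psmb5 averaged -2.95 ± 0.18 and -5.17 ± 0.62 in LPS and unstimulated mice labelled Abca7, and -2.70 ± 0.12 and -5.17 ± 0.21 in LPS and unstimulated control mice (SD, n = 6 each). Psmb9 minus Psmb6 averaged -3.86 ± 0.09 and -5.69 ± 0.79 in LPS and unstimulated mice labelled Abca7, and -3.58 ± 0.17 and -5.72 ± 0.19 in LPS and unstimulated control mice. For both pairs every LPS library lay above every unstimulated one. Psmb10 minus Psmb7 averaged -1.56 ± 0.06 and -1.78 ± 0.08 in LPS and unstimulated mice labelled Abca7, with no overlap, and -1.56 ± 0.14 and -1.83 ± 0.15 in LPS and unstimulated control mice. In control mice this last pair overlapped: the LPS libraries ran from -1.69 to -1.33 and the unstimulated ones from -1.99 to -1.61. Psme2 minus Psme3 averaged -2.42 ± 0.19 and -2.93 ± 0.14 in LPS and unstimulated mice labelled Abca7, and -2.36 ± 0.12 and -2.95 ± 0.11 in LPS and unstimulated control mice, without overlap. Psme1 minus Psme3 averaged -1.87 ± 0.13 and -2.25 ± 0.17 in LPS and unstimulated mice labelled Abca7, and -1.89 ± 0.14 and -2.27 ± 0.14 in LPS and unstimulated control mice. The libraries of this pair overlapped in both genotypes, with the lowest LPS library at -2.02 and the highest unstimulated one at -2.01 in mice labelled Abca7, and at -2.10 and -2.03 in control mice.

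Levels of different genes were compared per base of the gene length in the deposited table. On that scale Psmb8 stood at 4.14% ± 0.50 of Psmb5 in LPS mice labelled Abca7 and 0.936% ± 0.43 in unstimulated ones, and at 4.89% ± 0.41 in LPS control mice and 0.874% ± 0.13 in unstimulated ones. Psmb9 stood at 3.49% ± 0.22 of Psmb6 in LPS mice labelled Abca7 and 1.09% ± 0.63 in unstimulated ones, and at 4.26% ± 0.48 in LPS control mice and 0.940% ± 0.13 in unstimulated ones. Psmb10 stood much closer to Psmb7, at 32.5% ± 1.24 and 27.9% ± 1.496 in LPS and unstimulated mice labelled Abca7, and 32.5% ± 3.16 and 27.0% ± 2.86 in LPS and unstimulated control mice. Psme1 and Psme2 stood at 36.6% ± 3.37 and 31.4% ± 4.22 of Psme3 in LPS mice labelled Abca7, against 28.1% ± 3.30 and 22.0% ± 2.30 in unstimulated ones, and at 36.0% ± 3.45 and 32.6% ± 2.60 in LPS control mice, against 27.7% ± 2.72 and 21.6% ± 1.65 in unstimulated ones. With the longest protein-coding transcript of GENCODE M21 as the length, chosen after seeing the data, Psmb8 came to 7.18% and 1.62% of Psmb5 in LPS and unstimulated mice labelled Abca7 and to 8.49% and 1.52% in LPS and unstimulated control mice. Psme1 and Psme2 then came to 65.7% and 52.1% of Psme3 in LPS mice labelled Abca7, against 50.5% and 36.5% in unstimulated ones, and to 64.6% and 54.0% in LPS control mice, against 49.6% and 35.8% in unstimulated ones. So the size of each share depended on the length used.

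**Figure D3:**
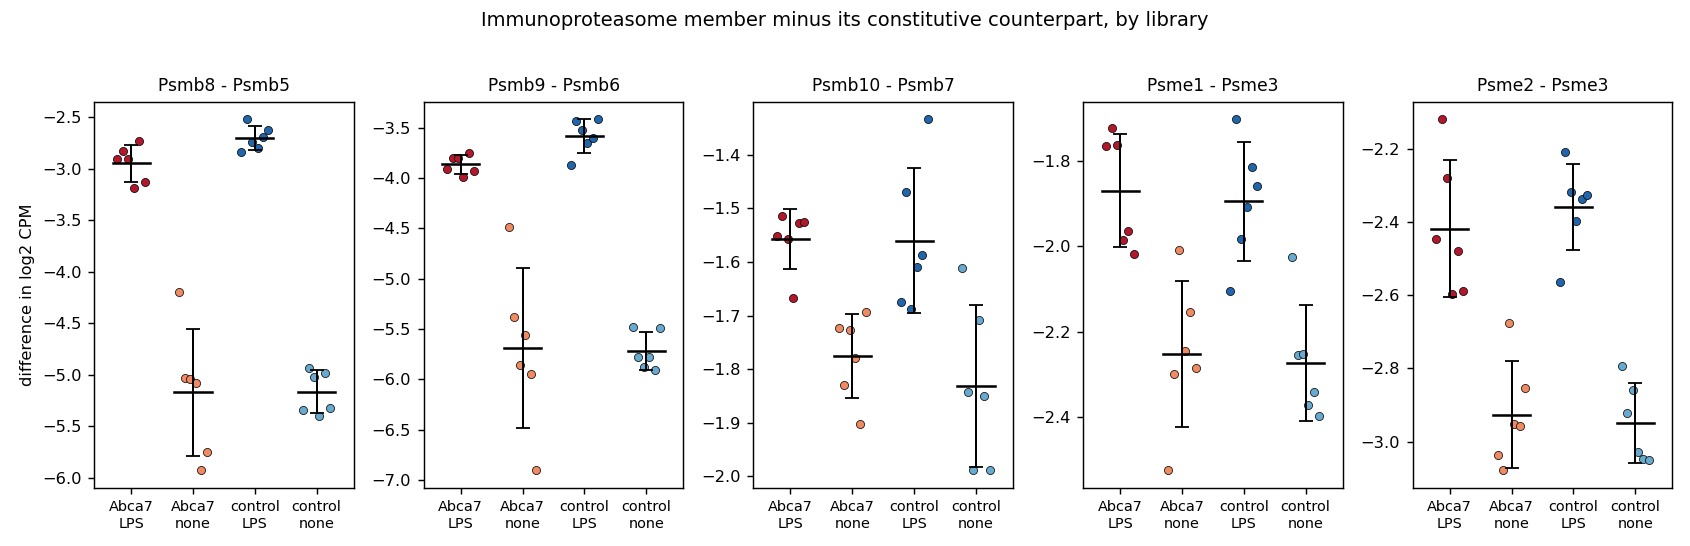
Difference in log2 CPM (vertical axes) between each immunoproteasome gene and its constitutive counterpart in each library, by group, with bars for the mean and SD of 6 mice. The LPS means lie higher in all 5 pairs, and the libraries overlap for Psme1 minus Psme3 in both genotypes and for Psmb10 minus Psmb7 in control mice.

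Across the 48 genes, levels per kilobase of table length covered a wide range. In unstimulated control mice the ATPase gene Psmc5 was highest with 65.2 ± 3.10 CPM per kilobase, and the beta-ring genes Psmb1 and Psmb5 followed with 62.6 ± 2.97 and 60.6 ± 2.64, which differ by less than their spread. Psmb1 ranked 2 on this scale but 23 per kilobase of the longest protein-coding transcript, with 32.9 ± 1.56. Psmb8 ranked 44 of 48 in LPS control mice, with 3.05 ± 0.29 CPM per kilobase, and 45 in unstimulated ones, with 0.528 ± 0.066. Psmb9 ranked 46 in both, with 1.01 ± 0.11 and 0.219 ± 0.036 CPM per kilobase. The lowest ranks belonged to Psma8, an alpha subunit of the testis, and Psmb11, the beta subunit of thymic cortical epithelium. Psma8 had 4 to 16 counts and 5 to 14 counts in LPS and unstimulated mice labelled Abca7, and 5 to 18 counts and 8 to 26 counts in LPS and unstimulated control mice. Psmb11 had 14 to 34 counts in both groups labelled Abca7, and 12 to 52 and 13 to 33 counts in LPS and unstimulated control mice. Markers of testis germ cells summed to 8.74 to 13.97 CPM over all libraries and those of thymic epithelium to at most 0.949 CPM. At these counts the 95% intervals of the log2 fold change in control mice ran from -1.23 to 0.35 for Psma8 and from -0.39 to 0.70 for Psmb11, so no change of less than about that size was detectable.

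Among themselves the constitutive genes varied little between mice of a group: the median coefficient of variation over 41 genes was 4.18% and 4.45% in LPS and unstimulated mice labelled Abca7, and 4.31% and 4.75% in LPS and unstimulated control mice. Psmb10 had 4.46% and 7.57% in LPS and unstimulated mice labelled Abca7 and 5.62% and 9.22% in LPS and unstimulated control mice. Psme2 had 10.9% and 8.20% in LPS and unstimulated mice labelled Abca7 and 5.53% and 5.33% in LPS and unstimulated control mice. Psmb8 had 14.5% and 9.59% in LPS mice labelled Abca7 and LPS control mice.

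The genotype label moved no proteasome gene past the threshold. Under LPS, 0 of 48 members were called in mice labelled Abca7 against controls, and 0 of the 48 had an unadjusted p under 0.05. That comparison called 0% of all genes (0 of 21891, with 1748 at an unadjusted p under 0.05, edgeR; DESeq2 called 2). Without LPS, again 0 of 48 were called and 0 had an unadjusted p under 0.05, where 0.032% of all genes were called. The interaction, which is the LPS effect in mice labelled Abca7 minus that in control mice, called 0 of 48 and 0% of all genes (745 at an unadjusted p under 0.05, edgeR; DESeq2 called 0).

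Under LPS the differences between mice labelled Abca7 and control mice had intervals that included 0 for each immunoproteasome gene. Psmb8 averaged 7.28 ± 1.06 CPM in LPS mice labelled Abca7 and 8.35 ± 0.80 CPM in LPS control mice (SD, n = 6 each), with a log2 difference of -0.20 and a 95% interval of -0.50 to 0.11. Psmb9 averaged 3.16 ± 0.31 CPM and 3.69 ± 0.40 CPM in the same groups, with a difference of -0.22 and an interval of -0.61 to 0.16. Psme2 differed by -0.07 (-0.20 to 0.06), and Psmb10 and Psme1 by 0.01 (-0.10 to 0.13) and 0.0087 (-0.11 to 0.13). Without LPS the differences were 0.06 (-0.31 to 0.44) for Psmb8, 0.18 (-0.29 to 0.65) for Psmb9, 0.05 (-0.09 to 0.18) for Psme2, 0.04 (-0.08 to 0.16) for Psme1 and 0.02 (-0.09 to 0.14) for Psmb10. The interaction was -0.26 (-0.75 to 0.23) for Psmb8, -0.40 (-1.01 to 0.20) for Psmb9, -0.12 (-0.31 to 0.07) for Psme2, -0.04 (-0.20 to 0.13) for Psme1 and -0.0096 (-0.17 to 0.15) for Psmb10. The estimates of Psmb8 and Psmb9 rested in part on unstimulated replicate 1 labelled Abca7. Without it, the interaction was -0.04 ± 0.19 for Psmb8 and -0.10 ± 0.23 for Psmb9, and the difference without LPS turned to -0.15 ± 0.15 for Psmb8 and -0.12 ± 0.18 for Psmb9. Within ages, the difference without LPS was -0.13 for Psmb8 and -0.25 for Psmb9 at 55 days (3 mice labelled Abca7 and 2 controls), 0.04 and -0.02 at 56 days (1 and 3 mice), and -0.58 and -0.17 at 57 days (1 mouse each). For the 41 constitutive genes above the floor the intervals of the interaction lay within 0.33 log2 units of 0. Choroid plexus markers were uneven between the groups compared here, as given below. With the level of Ttr in the model, the differences without LPS of Psmb10, Psme1 and Psme2 turned negative. The interactions of Psmb10 and Psme1 then turned positive. None of these was called, and the values are given in the last section.

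**Figure D4:**
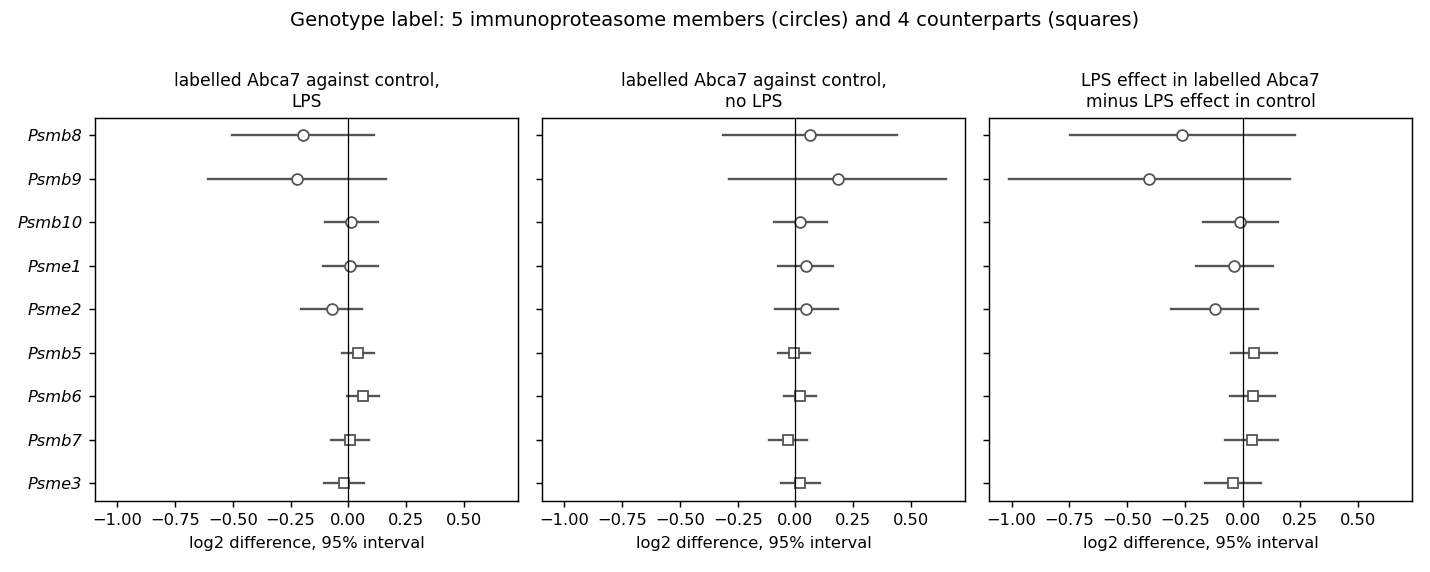
Log2 difference with its 95% interval (horizontal axes) between mice labelled Abca7 and control mice under LPS (left) and without LPS (middle), and the interaction (right), for the 5 immunoproteasome genes (circles) and their 4 counterparts (squares). Every interval includes 0, and those of Psmb8 and Psmb9 are the widest.

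The immunoproteasome genes lie in a pair of gene clusters and at 1 single locus, and several of their neighbours rose with them. Positions are on mm10, as the table gives them. Psmb9 (chr17:34181988-34187764) and Psmb8 (chr17:34197721-34201454) lie in the MHC region of chromosome 17, with Tap1 between them and Tap2 beyond Psmb8. Tap1 and Tap2 encode the transporter that carries proteasome products into the endoplasmic reticulum. Tap1 had log2 fold changes of 3.002 ± 0.19 in mice labelled Abca7 and 3.37 ± 0.19 in control mice, and Tap2 of 1.37 ± 0.13 and 1.68 ± 0.13, all called. The class II genes at either end were not called in either genotype: H2-DMb1 had -0.06 ± 0.16 in mice labelled Abca7 and -0.21 ± 0.16 in control mice, H2-DMb2 -0.12 ± 0.19 and -0.26 ± 0.19, and H2-Ob -0.07 ± 0.35 and -0.63 ± 0.34. Psmb9 shares 212 exonic bases with Tap1 and Psmb8 shares 498 with Gm20496 (1.97 ± 0.16 in mice labelled Abca7 and 2.23 ± 0.16 in control mice), each on the opposite strand, and no source used here states whether counting used the strand, so reads of these stretches cannot be told apart.

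Psme1 (chr14:55578123-55581529) and Psme2 (chr14:55587441-55591113) lie side by side on chromosome 14 with Emc9, a subunit of the membrane protein complex of the endoplasmic reticulum, between them. Emc9 was not called, with 0.04 ± 0.06 in mice labelled Abca7 and 0.08 ± 0.06 in control mice. Irf9, which encodes the DNA-binding subunit of the type I interferon complex, lies next but one to Psme2 and had log2 fold changes of 0.45 ± 0.10 in mice labelled Abca7 (adjusted p = 0.00304, edgeR) and 0.78 ± 0.10 in control mice (adjusted p = 1.56e-06). Rnf31, a ubiquitin ligase subunit that lies between Psme2 and Irf9, had 0.13 ± 0.05 in mice labelled Abca7 and 0.18 ± 0.05 in control mice, and was called in control mice (adjusted p = 0.125 and 0.0180). Psmb10 (chr8:105935728-105938392) lies apart from both clusters, and 0 of its 8 nearest tested neighbours were called in either genotype. Over all genes, 6.65% were called higher and 5.18% lower in mice labelled Abca7, and 9.39% and 7.92% in control mice. With 8 genes, 0 called is not far from these shares.

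Many of the genes that use the peptides rose under LPS, as the immunoproteasome genes did. This list and those below were chosen with earlier results of these data known. Over all genes, 6.65% were called higher and 5.18% lower in mice labelled Abca7, and 9.39% and 7.92% in control mice. Of 13 genes of peptide processing and loading, 8 were called higher and 0 lower in mice labelled Abca7, and 10 higher and 0 lower in control mice, with a median log2 fold change of 0.56 and 0.77. Besides Tap1 and Tap2 these included the MHC class I heavy chains H2-K1 (1.41 ± 0.14 in mice labelled Abca7 and 1.69 ± 0.14 in control mice) and H2-D1 (0.95 ± 0.11 and 1.18 ± 0.11), and their light chain B2m (0.56 ± 0.06 and 0.77 ± 0.06). Nlrc5, the transactivator of class I genes, had the largest change, 3.31 ± 0.25 in mice labelled Abca7 and 4.29 ± 0.27 in control mice. The general chaperones of the endoplasmic reticulum Calr, Canx and Pdia3 were not called, with -0.14 ± 0.07, 0.03 ± 0.04 and -0.16 ± 0.06 in mice labelled Abca7 and -0.08 ± 0.07, 0.06 ± 0.04 and -0.07 ± 0.06 in control mice.

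Of 7 genes of interferon signalling, 3 were called higher in mice labelled Abca7 and 4 in control mice, and 0 lower in either, with a median log2 fold change of 0.14 and 0.15. Irf1, the factor that drives immunoproteasome genes under interferon, had 18.9 ± 5.87 and 4.65 ± 1.65 CPM in LPS and unstimulated mice labelled Abca7, and 20.98 ± 3.38 and 3.82 ± 0.35 CPM in LPS and unstimulated control mice (SD, n = 6 each), with log2 fold changes of 2.04 ± 0.20 and 2.45 ± 0.20. Stat2, a partner of Irf9 in the type I interferon complex, had 0.71 ± 0.07 in mice labelled Abca7 and 0.84 ± 0.07 in control mice. The receptor genes Ifngr1 and Ifngr2 were not called in either genotype. All 5 tested genes of the ubiquitin-like modifier ISG15 system were called higher in both genotypes, with a median log2 fold change of 1.401 in mice labelled Abca7 and 1.53 in control mice. They ranged from Herc6, a ligase for ISG15 in mice, with 0.89 ± 0.07 in mice labelled Abca7 and 1.01 ± 0.07 in control mice, to the protease Usp18, with 3.92 ± 0.18 and 4.18 ± 0.18. Ubd, the sixth gene of that list, held 103 counts in all libraries together and was not tested.

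Of 20 measured partners of the proteasome, 1 was called higher and 0 lower in mice labelled Abca7, and 1 higher and 1 lower in control mice. Their median log2 fold changes were -0.0025 and -0.01. These counts lie near the shares of all genes called. Those shares were 6.65% higher and 5.18% lower in mice labelled Abca7, and 9.39% and 7.92% in control mice. The gene called higher was Nfe2l2, a stress-response factor, with 19.8 ± 1.96 and 13.3 ± 1.61 CPM in LPS and unstimulated mice labelled Abca7, and 21.7 ± 0.93 and 12.8 ± 0.69 CPM in LPS and unstimulated control mice, and log2 fold changes of 0.58 ± 0.07 and 0.76 ± 0.07. The shuttle factor Ubqln4 was called lower in control mice (-0.11 ± 0.04, adjusted p = 0.0253, edgeR) and had -0.08 ± 0.04 in mice labelled Abca7 (adjusted p = 0.184). Pomp, the maturation factor of new core particles, had -0.06 ± 0.04 in mice labelled Abca7 and -0.03 ± 0.04 in control mice, and Nfe2l1, the factor that sets proteasome gene expression when degradation fails, had -0.03 ± 0.03 and -0.01 ± 0.03, neither of them called. Of the ubiquitin genes and their activating enzyme, 0 of 5 were called in either genotype (0 and 1 at an unadjusted p under 0.05 in mice labelled Abca7 and in control mice, edgeR). With 5 genes, 0 called is not far from the shares of all genes. In the comparisons of the genotype label and in the interaction, 0 genes of these 5 lists were called. Of all 21891 genes, 7 were called without LPS, 0 under LPS and 0 in the interaction. For the label under LPS all 13 genes of peptide processing and loading were negative (median -0.16), 3 at an unadjusted p under 0.05 (edgeR). In the interaction all 13 were negative too (median -0.20), again 3 at such a p. For the label without LPS 10 were positive and 3 negative (median 0.06), 2 at such a p. Such a p was held by 1748, 745 and 1426 of all genes in that order.

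**Figure D5:**
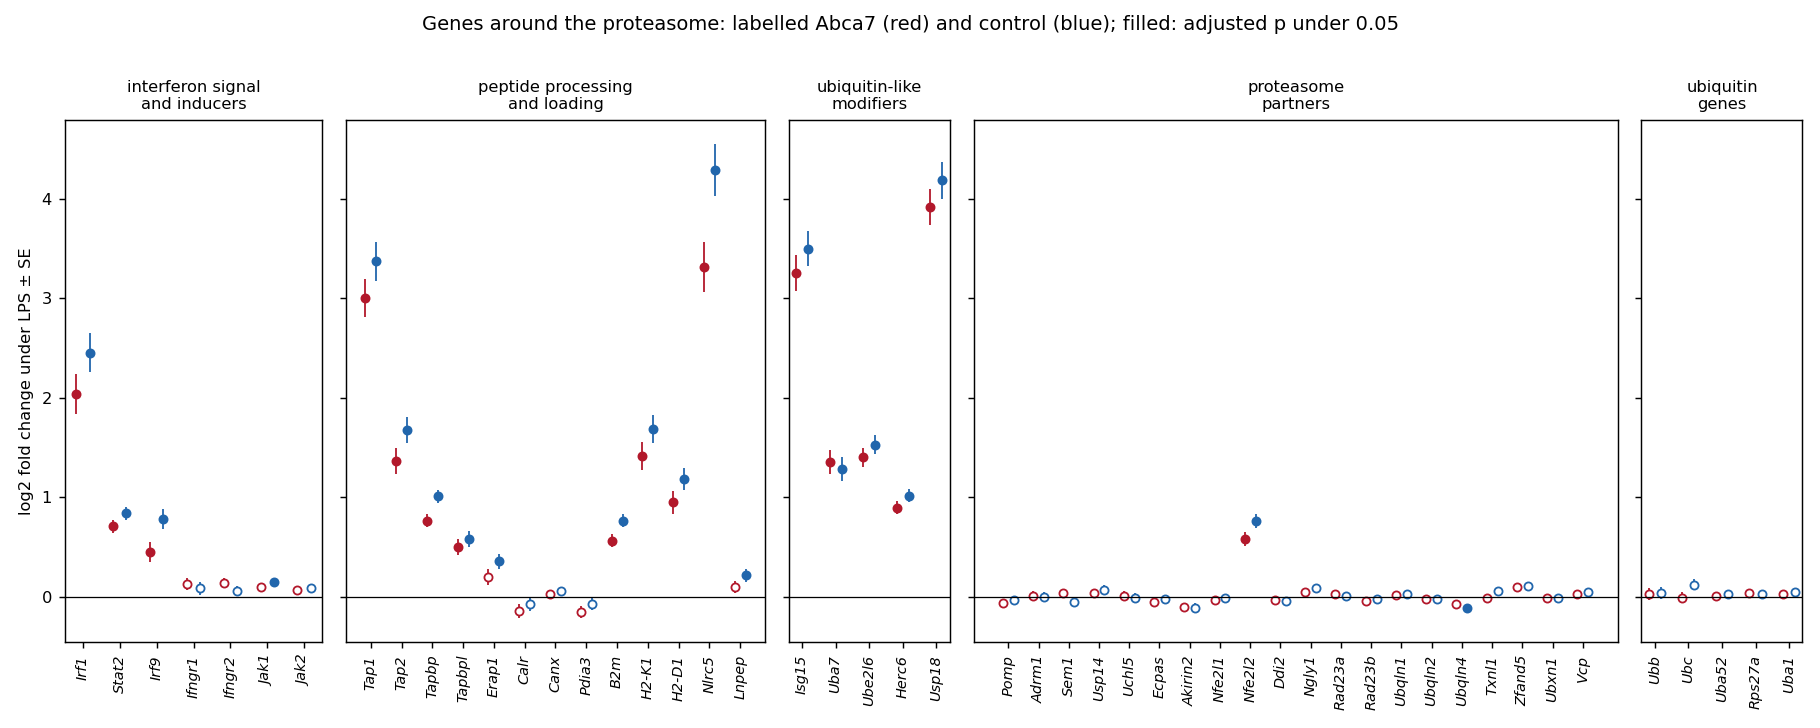
Log2 fold change under LPS with its standard error (vertical axis) for the tested genes of 5 lists, in mice labelled Abca7 (red) and control mice (blue), with filled symbols for called genes. Genes of interferon signalling, of peptide loading and of the ubiquitin-like modifier system lie up to 4.29, while the proteasome partners other than Nfe2l2 lie between -0.11 and 0.11, with Ubqln4 called lower in control mice.

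Markers of several cell types moved with LPS. Apart from the model with Ttr, their part in the results above was not tested. The 7 microglial markers had a summed level of 180 to 208 and 246 to 264 CPM in LPS and unstimulated mice labelled Abca7, and 177 to 195 and 244 to 259 CPM in LPS and unstimulated control mice, and 6 of the 7 were called lower in both genotypes. The other one, C1qa, was called higher in mice labelled Abca7 (0.25 ± 0.06) and had 0.16 ± 0.06 in control mice (adjusted p = 0.0536, edgeR). Of the 4 endothelial markers, 3 were called lower and 1 higher in both genotypes, with sums of 88.3 to 97.0 and 95.4 to 117 CPM in LPS and unstimulated mice labelled Abca7, and 94.8 to 107 and 103 to 112 CPM in LPS and unstimulated control mice. The 5 neutrophil markers summed to 0.588 to 1.44 and 0.148 to 0.602 CPM in LPS and unstimulated mice labelled Abca7, and 0.966 to 2.51 and 0.178 to 0.502 CPM in LPS and unstimulated control mice, with Elane at 0 in all libraries. The 2 neutrophil markers that could be tested, S100a8 and S100a9, were called higher in both genotypes. The 4 monocyte markers summed to 3.63 to 6.24 and 3.11 to 4.13 CPM in LPS and unstimulated mice labelled Abca7, and 3.39 to 4.94 and 2.61 to 3.99 CPM in LPS and unstimulated control mice. Of them, Plac8 (3.94 ± 0.77 in mice labelled Abca7 and 2.94 ± 0.62 in control mice) and Ms4a4c (3.84 ± 0.61 and 4.03 ± 0.59) were called higher, and Ccr2 and Ly6c2 were not called. Of the 4 astrocyte markers, 1 was called higher in mice labelled Abca7 and 3 in control mice. The 7 lymphocyte markers summed to 8.13 to 14.1 CPM over all libraries, and the groups overlapped. The 5 choroid plexus markers summed to 34.9 to 425 and 59.0 to 492 CPM in LPS and unstimulated mice labelled Abca7, but to 187 to 539 and 12.3 to 292 CPM in LPS and unstimulated control mice. Of these 5, 4 were called higher in control mice (median log2 fold change 1.70) and 0 in mice labelled Abca7 (median -0.28). For the genotype label and the interaction, 0 of the 5 were called. Without LPS all 5 were higher in mice labelled Abca7 (median 1.53), each with an unadjusted p under 0.05 (edgeR). In the interaction all 5 were negative (median -2.05), again each with such a p. Under LPS 0 of 5 had one (median -0.19). Over all 21891 genes, 1426 had such a p without LPS and 745 in the interaction. With Ttr in the model, control mice kept 3 of the 5 immunoproteasome calls under LPS and mice labelled Abca7 kept all 5. Because choroid plexus markers were higher with LPS in control mice, that model cannot tell choroid plexus tissue from LPS there.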

How the data were processed

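RNA of the cortex of 24 mice was measured, 1 library each. STAR 2.5.2b and the build mm10 are named in the submitters' processing notes. The series design text names a HiSeq 4000 and the MAP-RSeq 2.1.1 workflow. The authors deposited raw read counts per gene with no normalization, and a gene length in the same table. Among 33460 genes whose coordinates equal those of GENCODE M21, this length was the union of exons in 94.7%. No source used here states the annotation release, the strand setting or how reads with several matches were handled.

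Groups came from the genotype and stimulus labels. The titles carry different numbers, taken as 1 animal each. No label gives a batch or litter, and p-values measure the spread between these libraries. No library was identical to another.

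Counts of all genes were filtered with filterByExpr by group (21891 kept), scaled by TMM and fitted in edgeR 4.0.16 (R 4.3.3) with 1 coefficient per group. Each of 5 contrasts had a two-sided quasi-likelihood F test, adjusted over all genes by Benjamini and Hochberg, with a threshold of 0.05. The script was tested on simulated data. The standard error is the log2 fold change over the root of F. CPM carries no prior count. Log2 CPM carries a prior count of 2. Single values per library were compared by exact permutation.

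The members and the lists of other genes were chosen with earlier results of these data known. An item of the interferon list and an item of the neuron markers are not reported here. The 5 immunoproteasome genes and their 4 counterparts were named in full, other members if called or at the end of a range. Alternatives were DESeq2 1.42.0, its size factors, other filters, age, Ttr and 5 surrogate variables (sva 3.50.0) as covariates, exclusion of a pair of ribosomal RNA loci, and exclusion of each library in turn. Promoter windows are RefSeq's for GRCm38.p6. Figures were drawn with matplotlib 3.10.9.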

Additional observations from a re-analysis of the deposited data

Results flagged for a closer look

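Each gene was searched, group by group, for a single library far from the other 5 of its group (a gap above Dixon's 95% critical value). Of 192 groups (48 genes in 4 groups), 10 were picked out, and chance picks out about 1 in 20 groups.

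Among the immunoproteasome genes 1 group was picked out: Psmb10 in LPS replicate 4 labelled Abca7 had a log2 CPM of 4.48, below the 4.60 to 4.67 of the other 5. This is the library that stood apart on the first principal component.

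The other 9 concern constitutive genes. In LPS replicate 5 labelled Abca7, Psma5 (5.32), Psmd14 (5.92) and Psmg4 (1.93) were the highest of their group. In unstimulated replicate 1 labelled Abca7, the library with the highest Psmb8 and Psmb9 of its group, Psmc5 was the lowest (6.38) and Psmd14 the highest (5.95). Among LPS control libraries, Psmb3 was lowest in replicate 6 (4.80), Psmg1 highest in replicate 3 (3.14) and Psmg3 lowest in replicate 1 (2.54). Psmd8 was lowest in unstimulated control replicate 3 (5.66). All values are log2 CPM, and the causes were not tested.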

How the results depend on the processing

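In mice labelled Abca7, the 5 immunoproteasome calls held under every alternative run, and 0 constitutive genes were called in each. In control mice, the 5 calls fell to 3 with Ttr as a covariate and held in the other alternatives, each library left out included. The 1 constitutive call in control mice (Psme4) became 0 with Ttr or without a filter on low counts, 2 with age as a factor, and 0 to 2 with 1 library left out. Genes called under LPS in control mice numbered 3790, but 1626 with Ttr (3201 to 4189 with 1 library left out), and in mice labelled Abca7 2591 (2165 to 2841). For the genotype label without LPS, 7 genes were called, but 31 by DESeq2, 3 with Ttr, 49 with age, 131 with surrogate variables and 2 to 38 with 1 library left out (38 without unstimulated control replicate 1, 19 without unstimulated replicate 1 labelled Abca7). Under LPS it was 0, but 2 by DESeq2, 2 with age, 3 with surrogate variables and 0 to 1 with 1 library left out. For the interaction it was 0, and 0 to 7 with 1 library left out (7 without unstimulated control replicate 1). The causes were not tested. Under these alternatives 0 of the 48 genes were called in either direction for the label or the interaction. Uncalled estimates for the label turned sign without LPS for Psmb8 and Psmb9 with age (-0.14 and -0.11) and surrogate variables (-0.10 and -0.080), and for Psmb10, Psme1 and Psme2 with Ttr (-0.12, -0.14 and -0.029). Under LPS, Psmb10 turned with surrogate variables (-0.015), and with Ttr the interactions of Psmb10 and Psme1 were 0.16 and 0.17. With 1 library left out, estimates without LPS ran from -0.15 to 0.19 for Psmb8, -0.12 to 0.36 for Psmb9 and -0.011 to 0.065 for Psmb10. Under LPS they ran from -0.25 to -0.14 for Psmb8 and -0.27 to -0.18 for Psmb9. For Psmb10 they ran there from -0.0038 to 0.041 and for Psme1 from -0.014 to 0.040. The interaction ran from -0.39 to -0.043 for Psmb8, -0.59 to -0.10 for Psmb9 and -0.053 to 0.023 for Psmb10. No paired analysis was possible because the labels give no replicate number that mice of different groups share, and the numbers used here only name mice. With a prior count of 0.5, or any library left out, the LPS differences of the 5 pairs moved by less than the SD of the more uneven group compared. In mice labelled Abca7 with 1 library left out, they ran from 2.07 to 2.42 for Psmb8 minus Psmb5 and from 1.58 to 2.065 for Psmb9 minus Psmb6. The SDs of these pairs were 0.18 and 0.09 in LPS mice labelled Abca7, and 0.62 and 0.79 in unstimulated ones. Counts of 20 to 117 limit Psmb8 and Psmb9 in unstimulated mice, and counts of 4 to 52 limit Psma8 and Psmb11.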
